A study of Arabidopsis thaliana with 36 samples.

Results

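The 25 genes described here are those whose transcripts were abundant in the basal hypocotyl segment of wild-type Arabidopsis thaliana seedlings 8 h after wounding and scarce both at 0 h and at 16 h. They were chosen by measured values, namely the mean CPM (read counts scaled to a common library total) of the 9 wild-type basal libraries. A locus was taken if its mean at 8 h was at least 10 CPM and if that mean, with 0.5 CPM added, was at least 4 times the 0 h mean and 4 times the 16 h mean, each with 0.5 CPM added. Of 32833 loci in the count files, 9168 reached 10 CPM at 8 h and 25 met the whole rule. All 25 entered the tests below, and all 25 are in the reference annotation, 12 of them with a gene symbol. The wild-type basal values are therefore given as a description and without a test, and the tests rest on the 27 libraries that the rule did not use.

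The libraries were made with QuantSeq 3′ FWD, a kit that sequences the 3′ end of each polyadenylated transcript, so that a count is read per transcript and not per length. Seedlings were stratified for 3 days, germinated overnight under constant light and kept for 5 days in low light. They were then cut just above the junction of root and shoot, and 2 to 3 mm segments of the hypocotyl were collected as basal or medial at 0, 8 or 16 h after the wound. The 2 genotypes were Col-0 wild type (WT) and ahk3 ahk4, a double mutant in the cytokinin receptor genes AHK3 and AHK4. Genotype, region and time gave 12 groups of 3 libraries, 36 in all, labelled as biological replicates, and the p-values measure the spread between those samples. Every seedling was cut, including those of the 0 h groups. No group holds seedlings left uncut to 8 h or 16 h, so wounding and time of day cannot be told apart. The sources used here give neither the alleles nor the number of seedlings per sample.

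Each library held 6136167 to 13557332 reads assigned to genes. AHK3 lay between 46.6 and 168 CPM in wild-type libraries, against 1.13 to 9.3 CPM in mutant ones, and AHK4 between 2.36 and 14.5 and between 0.106 and 2.25 CPM, so both targeted genes matched the labels. Root hair markers did not pass 0.904 CPM in any library and COBL9 was at 0 in all 36. The share of reads aligned at more than 1 place ran from 2.981% to 60.315%, and it differed between groups. In WT basal at 8 h it was 46.916% in 1 library and 12.743% and 13.338% in the other two. It was 44.218% to 60.315% in ahk3 ahk4 basal at 0 h and 10.528% to 20.432% in ahk3 ahk4 basal at 8 h. Replicates agreed least in ahk3 ahk4 medial at 8 h, with median correlations of 0.887, 0.924 and 0.912 to the other libraries of the group. In these bulk samples, fewer cells of a type and less RNA per cell cannot be told apart.

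When a hypocotyl is cut from its root, tissue beside the cut passes through a wound response of calcium, reactive oxygen and jasmonate signals. Auxin moving down from the shoot then collects there, and root founder cells form. Transcription factors usually lead such responses: they bind short promoter sequences and switch sets of enzymes and transporters on or off for a few hours. The flavonol branch of phenylpropanoid metabolism is a well-known example, in which MYB12, MYB111 and MYB11 activate the genes from chalcone synthase to flavonol synthase. Transcripts that rise and fall within hours can also follow the circadian clock, whose evening-phased genes often carry the evening element in their promoters.

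The promoter windows of the members were read from RefSeq (TAIR10.1), from 250 bases before the annotated gene start to 50 bases from it, for all 25 loci. Of 7 motifs searched on both strands, AAATATCT, the core of the evening element, was found in 5 of the 25 windows, against 5.36% of 32546 windows of the same length. Those 5 windows are shown for that match, and the window of MYB12 for the G box marked in it. The windows are those of MYB111 (chromosome 5, minus strand), AT4G16146 (chromosome 4, minus), DREB2C (chromosome 2, minus), AT5G62360 (chromosome 5, plus) and FKF1 (chromosome 1, plus), and capitals mark the motif or its reverse complement. In the window of MYB12 (chromosome 2, plus) capitals mark CACGTG, the G box, which bHLH and bZIP factors such as HY5 bind.
MYB111: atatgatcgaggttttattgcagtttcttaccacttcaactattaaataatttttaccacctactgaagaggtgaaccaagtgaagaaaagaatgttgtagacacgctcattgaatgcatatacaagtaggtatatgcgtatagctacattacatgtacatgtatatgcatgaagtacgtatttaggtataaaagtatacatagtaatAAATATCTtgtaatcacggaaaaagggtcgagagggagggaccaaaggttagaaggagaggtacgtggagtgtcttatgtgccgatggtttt
AT4G16146: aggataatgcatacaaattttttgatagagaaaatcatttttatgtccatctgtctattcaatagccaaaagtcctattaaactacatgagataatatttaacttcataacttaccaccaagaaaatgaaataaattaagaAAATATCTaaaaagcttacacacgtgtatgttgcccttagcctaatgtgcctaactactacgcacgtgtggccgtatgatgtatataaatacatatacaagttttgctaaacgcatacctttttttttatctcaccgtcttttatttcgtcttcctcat
DREB2C: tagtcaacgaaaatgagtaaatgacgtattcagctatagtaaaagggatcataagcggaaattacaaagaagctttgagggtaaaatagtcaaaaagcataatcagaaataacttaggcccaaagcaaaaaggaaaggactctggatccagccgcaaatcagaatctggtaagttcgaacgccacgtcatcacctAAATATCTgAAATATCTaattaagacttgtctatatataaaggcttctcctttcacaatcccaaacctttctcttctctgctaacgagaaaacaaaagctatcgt
AT5G62360: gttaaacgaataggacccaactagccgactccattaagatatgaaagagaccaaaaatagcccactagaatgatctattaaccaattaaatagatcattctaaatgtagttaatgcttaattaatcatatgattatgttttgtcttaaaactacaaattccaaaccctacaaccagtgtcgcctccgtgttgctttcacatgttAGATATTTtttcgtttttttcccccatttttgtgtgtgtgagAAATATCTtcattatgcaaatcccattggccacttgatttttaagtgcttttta
FKF1: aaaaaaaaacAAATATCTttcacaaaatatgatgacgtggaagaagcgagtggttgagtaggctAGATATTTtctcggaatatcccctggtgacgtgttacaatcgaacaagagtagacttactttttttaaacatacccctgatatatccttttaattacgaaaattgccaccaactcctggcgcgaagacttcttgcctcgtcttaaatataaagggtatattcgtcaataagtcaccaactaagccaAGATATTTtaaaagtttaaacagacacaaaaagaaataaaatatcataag
MYB12: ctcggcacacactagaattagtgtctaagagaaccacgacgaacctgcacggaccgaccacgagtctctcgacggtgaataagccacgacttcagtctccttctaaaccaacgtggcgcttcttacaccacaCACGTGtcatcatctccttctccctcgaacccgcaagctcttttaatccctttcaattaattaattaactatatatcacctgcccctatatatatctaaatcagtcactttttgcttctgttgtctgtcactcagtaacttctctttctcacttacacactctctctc

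DREB2C and AT5G62360 hold the evening core 2 times each and FKF1 holds it 3 times. With the base at the gene start counted as 1, the copy in MYB111 begins at -42 and those in DREB2C at -55 and -46. The G box was in 2 member windows (7.11% of all windows), the MYB12 window and that of AT4G16146, which has 2 copies. The W box TTGACC was in 3 (13.8%), those of CGA1, OPR2 and AT4G20970, and the site II motif TGGGCC in 3 (14.3%), those of RNS1, AT2G34930 and DREB2C. The telo box AAACCCTA was in 2 (6.19%), those of IAA5 and AT5G62360. Neither GCCGCC, the GCC box (2.63%), nor the heat shock element (0.504%) was in a member window. None of these motifs overlapped another in the windows shown. The matches describe letters and were not tested as binding sites.

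In the WT basal libraries that defined the set (0.0761% of loci), the mean at 8 h was a median 20.4 times the 0 h mean, with a range from 4.14 for FKF1 to 628 for UGT84A1. Against 16 h the median ratio was 5.13, from 4.04 for SULTR1;2 to 20.5 for FKF1. In each of the 25 genes, every 8 h library lay above all 0 h and all 16 h libraries of WT basal. That separation largely follows from the choice, which used the same libraries. The members just inside the threshold, by the smaller of the 2 ratios, were SULTR1;2 at 4.04, FKF1 at 4.14, ELI3-2 at 4.3 and EXO70H1 at 4.33. The loci just outside were AT4G30660 at 3.73, ENDO2 at 3.59, AT3G01830 at 3.56 and ABR1 at 3.54. Several members are known or annotated regulators: MYB12, MYB111, DREB2C, CGA1, IAA5 and 3 bHLH genes. Others encode enzymes of phenylpropanoid or oxylipin conversion, transporters, secreted or wall proteins, or proteins of no known function, and AT5G09735 is annotated as a long noncoding RNA.

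**Figure D1:**
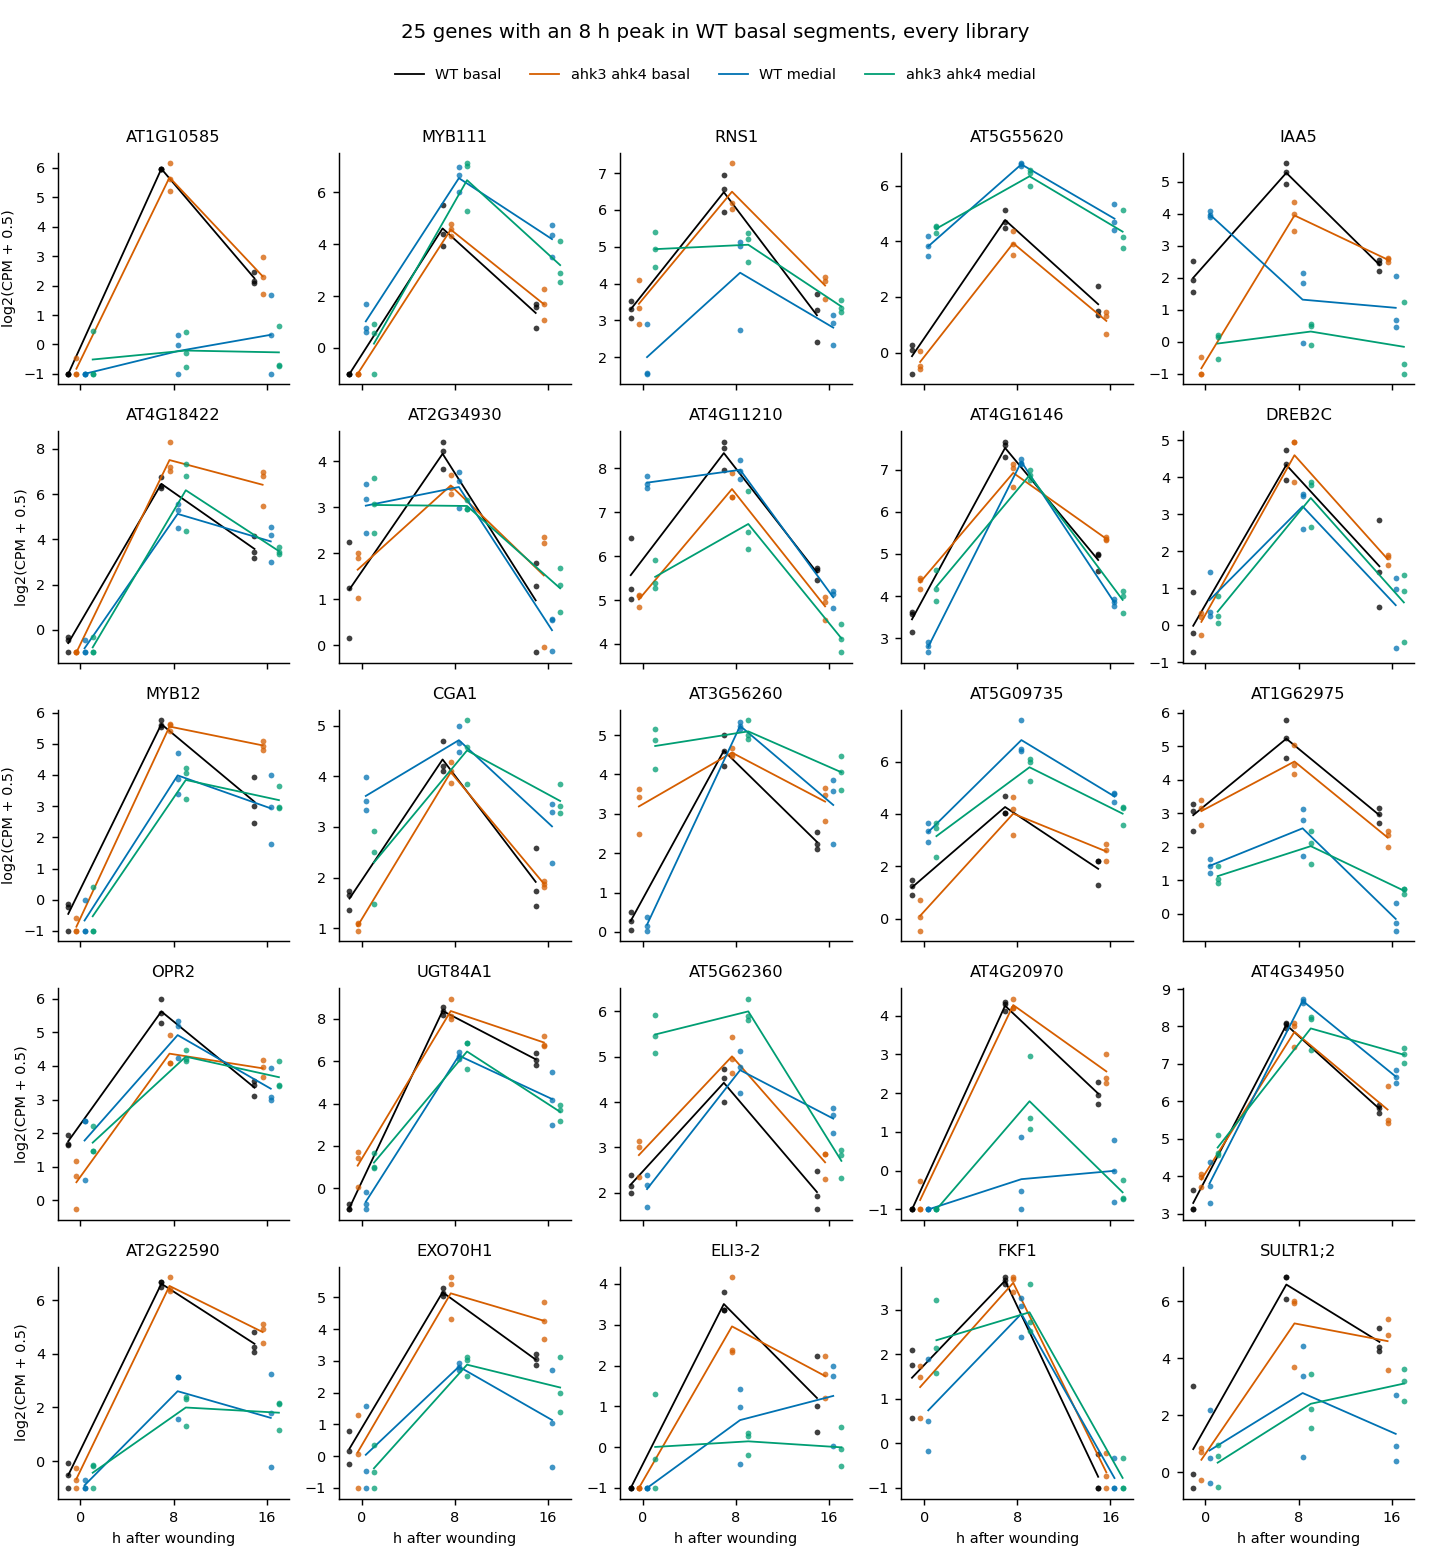
CPM of the 25 members in all 36 libraries at 0, 8 and 16 h after wounding, on a log2(CPM + 0.5) axis. Points are libraries and lines join the means of the 3 log values in WT basal (black), ahk3 ahk4 basal (orange), WT medial (blue) and ahk3 ahk4 medial (green). In WT basal each gene is highest at 8 h, as the rule required, while RNS1, AT3G56260 and AT5G62360 begin higher in ahk3 ahk4 medial than in WT medial and IAA5 begins lower.

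The question was then how the same genes behaved in the mutant and in the segment farther from the cut. In ahk3 ahk4 basal, all 25 members rose from 0 to 8 h (edgeR quasi-likelihood test over 19819 genes, Benjamini-Hochberg adjusted p below 0.05), against a background of 23.3% of genes up and 19.7% down. The median log2 fold change was 5.52, against 0.02 over all genes tested. From 8 to 16 h, 17 of the 25 fell and 0 rose, where 2.92% of genes fell and 2.7% rose, and the members' median was -1.86 against -0.02. Without 1 library, 13 to 15 fell. The fall of AT2G34930 was lost with library totals or only the groups compared (adjusted p = 0.0583 and 0.122). It was lost also without any one of replicates 1 or 2 at 16 h or replicates 1, 2 or 3 at 8 h (adjusted p 0.0589 to 0.193). Between 0 and 16 h, 18 members were higher at 16 h and 1, FKF1, was lower (24.7% and 22.2% of genes). Every member had its highest mean at 8 h in this series. With the share of reads aligned at more than 1 place as a covariate, 23 members rose from 0 to 8 h, and AT3G56260 (adjusted p = 0.0728) and FKF1 (adjusted p = 0.144) did not pass. Of 3 guard cell markers, FMA, KAT1 and MUTE, 2 were tested, and in that series 1 rose from 0 to 8 h and 1 fell after it. Their summed level in ahk3 ahk4 basal, with 0 h and 8 h ranges that overlap, was 0.219 to 7.66 CPM at 0 h, 3.67 to 9.74 at 8 h and 0.86 to 2.86 at 16 h. In WT basal the sums were 0.814 to 1.53, 4.65 to 6.47 and 1.7 to 2.92 CPM. MUTE was at 0 in every basal library, and the part of these cells in the results was not tested.

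In WT medial, 20 members rose from 0 to 8 h and 1, IAA5, fell, against 20.6% of genes up and 19.4% down. Without 1 library of that series, 16 to 20 rose. The members' median log2 fold change there was 3.03, or 2.81 with the 3 genes that had 0 counts at 0 h set at their bounds, against 0.00 over all genes. After 8 h, 16 fell and 0 rose (7.94% and 10.4% of genes), with a median of -1.75. At 16 h, 15 stood above their 0 h level and 5 below it (21.3% and 18% of genes). The count below is near that background. In ahk3 ahk4 medial, 16 members rose to 8 h and 0 fell (20.7% and 17.3% of genes), with a median of 2.68. Then 17 fell and 0 rose (5.81% and 5.04%), with a median of -1.87. Leaving out 1 library, 13 to 16 fell. By 16 h, 10 were above and 5 below 0 h in that series (19.2% and 16.1%), and here too the count below is near the background. The contrasts of a series share libraries, 8 h with both steps, so the 2 steps are not independent of each other.

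**Figure D2:**
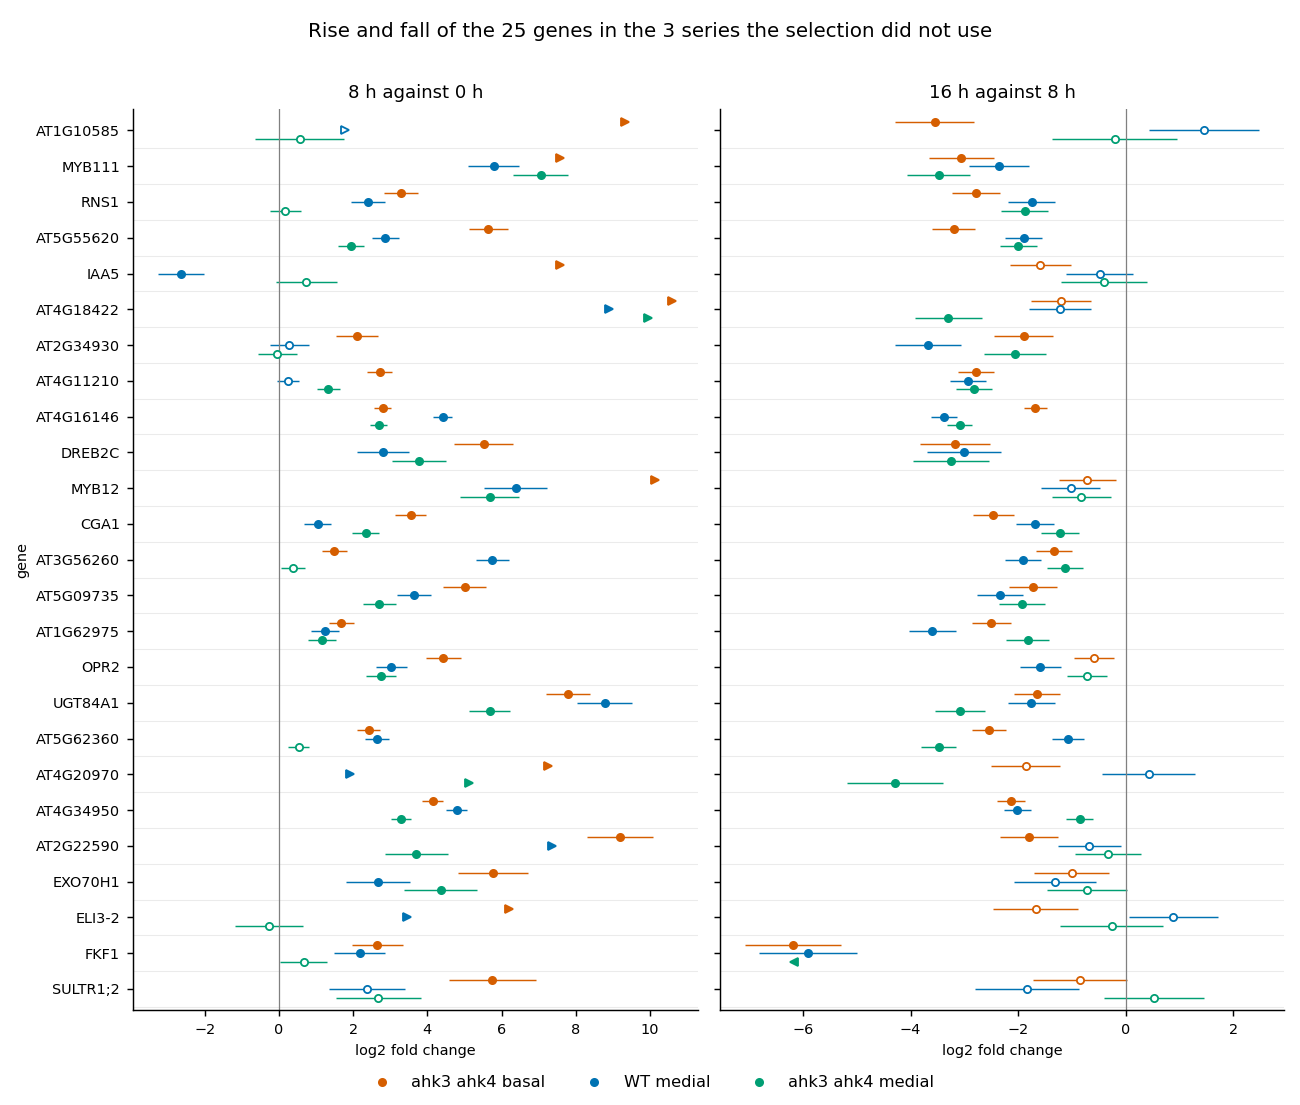
Log2 fold change of the 25 members from 0 to 8 h and from 8 to 16 h in ahk3 ahk4 basal, WT medial and ahk3 ahk4 medial. Circles are fitted values with SE bars, filled where the adjusted p was below 0.05, and triangles are genes with 0 to 3 counts in the lower group, drawn at the log2 of the count ratio or of its bound. All 25 genes lie to the right of 0 from 0 to 8 h in ahk3 ahk4 basal, and IAA5 lies to the left in WT medial.

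Members that both rose to 8 h and fell to 16 h numbered 17 in ahk3 ahk4 basal (0.999% of genes), 14 in WT medial (3.76%) and 12 in ahk3 ahk4 medial (2.56%). Those that did both numbered 13 to 17, 12 to 16 and 10 to 12 without 1 library. Of the 25, 9 did so in all 3 of these series, as did 0.156% of all genes: MYB111, DREB2C, CGA1, the bHLH gene AT1G62975, UGT84A1, the transporter gene AT4G34950, AT4G16146, AT5G55620 and the noncoding RNA AT5G09735. Among the 9, the rise of CGA1 in WT medial was lost without any one of replicates 2 or 3 of WT medial at 0 h or replicate 3 of WT medial at 8 h (adjusted p 0.0618 to 0.0716). The fall of AT5G09735 in ahk3 ahk4 basal was lost with only the groups compared (adjusted p = 0.0627) and without any one of replicates 1 or 3 of ahk3 ahk4 basal at 16 h or replicate 2 of ahk3 ahk4 basal at 8 h (adjusted p 0.0528 to 0.099), and further losses stand with the genes below. RNS1, AT4G11210, AT3G56260, AT5G62360 and FKF1 did so in 2 series. In these, the fall of AT3G56260 in ahk3 ahk4 basal was lost without replicate 2 of ahk3 ahk4 basal at 16 h (adjusted p = 0.0957) and that of AT5G62360 in WT medial without replicate 2 of WT medial at 16 h (adjusted p = 0.0628). IAA5, MYB12, EXO70H1, ELI3-2 and SULTR1;2 did so in 0 of the 3. Every 8 h library lay above all 0 h and 16 h libraries for 22 members in ahk3 ahk4 basal (3% of genes tested), 14 in WT medial (8.58%) and 10 in ahk3 ahk4 medial (4.74%). The 4-fold rule, applied to each other series on its own means, took 13 loci in ahk3 ahk4 basal (0.0396% of loci), of which 10 were members. It took 31 loci in WT medial (0.0944%), of which 4 were members, and 22 in ahk3 ahk4 medial (0.067%), of which 5 were. As shares, the overlap was 40% of the members and 76.9% of the ahk3 ahk4 basal loci, 16% and 12.9% for WT medial, and 20% and 22.7% for ahk3 ahk4 medial.

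The flavonol regulators MYB12 and MYB111 were at or below 2.71 CPM at 0 h in every series. In WT basal, MYB12 stood at 0, 0.407 and 0.359 CPM at 0 h, 53.6, 45.9 and 47.7 at 8 h and 14.9, 7.57 and 5 at 16 h. For MYB12, ahk3 ahk4 basal libraries stood at 0, 0.163 and 0 CPM at 0 h, 42, 49.5 and 48 at 8 h and 33.8, 27.4 and 30.2 at 16 h. The 8 h levels overlapped between the genotypes, while all mutant 16 h libraries lay above all WT ones. The rule favoured low wild-type values at 16 h, so this is a description without a test. In WT medial, MYB12 stood at 0, 0.502 and 0 CPM at 0 h, 14.1, 9.89 and 25.6 at 8 h and 15.7, 7.44 and 2.95 at 16 h. For MYB12, ahk3 ahk4 medial libraries stood at 0.828, 0 and 0 CPM at 0 h, 18.1, 16.4 and 8.82 at 8 h and 7.24, 7.42 and 12 at 16 h. The rise of MYB12 in ahk3 ahk4 basal was 1129-fold by counts (95% interval 202 to 44607), against 1 count at 0 h. MYB12 also rose in WT medial (log2 fold change 6.38 ± 0.85 (SE), adjusted p = 4.21e-07) and in ahk3 ahk4 medial (log2 fold change 5.68 ± 0.79 (SE), adjusted p = 1.06e-06). Its later values did not pass the test in any of the 3 series, with 65.5% of the 8 h mean left at 16 h in ahk3 ahk4 basal, 52.4% in WT medial and 61.5% in ahk3 ahk4 medial. In WT basal 18.7% was left.

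MYB111 differed from MYB12 in being more abundant in the medial segment. In WT basal, MYB111 stood at 0, 0 and 0 CPM at 0 h, 44.4, 20.4 and 14.8 at 8 h and 1.19, 2.75 and 2.5 at 16 h. For MYB111, ahk3 ahk4 basal libraries stood at 0, 0 and 0 CPM at 0 h, 27.2, 19.5 and 23.2 at 8 h and 4.37, 2.77 and 1.58 at 16 h. In WT medial, MYB111 stood at 1.04, 1.2 and 2.71 CPM at 0 h, 124, 64.1 and 101 at 8 h and 25.8, 20.1 and 10.8 at 16 h. For MYB111, ahk3 ahk4 medial libraries stood at 0, 1.41 and 0.977 CPM at 0 h, 139, 128 and 37.9 at 8 h and 17, 5.33 and 6.98 at 16 h. All 8 h libraries of WT medial lay above all 8 h libraries of WT basal. In ahk3 ahk4 at 8 h MYB111 was lower in basal than in medial (log2 fold change -2.10 ± 0.55 (SE), adjusted p = 0.0108), whereas MYB12 was higher in basal (log2 fold change 1.74 ± 0.54 (SE), adjusted p = 0.0304). The MYB12 call was lost without any one of replicates 2 or 3 of ahk3 ahk4 basal at 8 h or replicates 1, 2 or 3 of ahk3 ahk4 medial at 8 h (adjusted p 0.0529 to 0.115). From 0 to 8 h MYB111 rose at least 191-fold in ahk3 ahk4 basal, with 3 counts taken as the floor of the group. MYB111 fell from 8 to 16 h in ahk3 ahk4 basal (log2 fold change -3.06 ± 0.60 (SE), adjusted p = 0.00268), in WT medial (log2 fold change -2.35 ± 0.55 (SE), adjusted p = 0.00408) and in ahk3 ahk4 medial (log2 fold change -3.48 ± 0.59 (SE), adjusted p = 0.000333).

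The pathway of these regulators was listed as well. Of 18 listed flavonoid and anthocyanin genes, MYB12 and MYB111 included, 17 were tested. From 0 to 8 h 12 of these rose in ahk3 ahk4 basal and all 17 rose in each medial series, with median log2 fold changes of 5.60, 9.41 and 8.31, or 5.60, 7.97 and 7.31 with genes of 0 counts in a group at their bounds. Among all genes tested, 23.3%, 20.6% and 20.7% rose. After 8 h 7 rose and 2 fell in ahk3 ahk4 basal, 4 rose and 2 fell in WT medial, and 5 rose and 5 fell in ahk3 ahk4 medial, and the medians were -0.35, -0.14 and -0.10. In that step 2.7%, 10.4% and 5.04% of all genes rose and 2.92%, 7.94% and 5.81% fell. Chalcone synthase, TT4, the first enzyme of the branch, was at 0, 0 and 0 CPM at 0 h, 1997, 1755 and 2450 at 8 h and 1794, 1566 and 1120 at 16 h in WT basal. In ahk3 ahk4 basal TT4 read 0.11, 0.978 and 0.328 CPM at 0 h, 1886, 1008 and 1660 at 8 h and 1498, 1095 and 2135 at 16 h, so its 8 h and 16 h libraries overlapped in both. FLS1, flavonol synthase, was at 0.691, 1.22 and 0 CPM at 0 h, 923, 969 and 1614 at 8 h and 843, 798 and 571 at 16 h in WT basal, a lower range at 16 h. LDOX, a late enzyme of the anthocyanin branch, rose after 8 h in ahk3 ahk4 basal, from 0.077, 0 and 0 CPM to 74.7, 55.5 and 59.2. In WT basal it read 0, 0.67 and 0.443 CPM at 8 h and 13.9, 22.6 and 24.5 at 16 h. Among the listed regulators, PAP1, an anthocyanin MYB, fell from 8 to 16 h in all 3 tested series as MYB111 did, with log2 fold changes of -2.64, -4.14 and -3.19 in ahk3 ahk4 basal, WT medial and ahk3 ahk4 medial.

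The 3 bHLH genes, AT1G10585, AT4G20970 and AT1G62975, belong to a large family of DNA-binding proteins. In WT basal, AT1G10585 stood at 0, 0 and 0 CPM at 0 h, 61.8, 62.4 and 62.3 at 8 h and 4, 5.04 and 3.8 at 16 h, the closest agreement between replicates in the set. For AT1G10585, ahk3 ahk4 basal libraries stood at 0, 0 and 0.219 CPM at 0 h, 49.2, 37 and 71.3 at 8 h and 4.37, 2.77 and 7.29 at 16 h. It was 648-fold higher at 8 h than at 0 h by counts (95% interval 179 to 5356, 2 counts at 0 h), and it fell by 16 h (log2 fold change -3.56 ± 0.74 (SE), adjusted p = 0.0043). In the medial segments AT1G10585 did not exceed 2.68 CPM in any library: WT medial read 0, 0 and 0 CPM at 0 h, 0.488, 0.761 and 0 at 8 h and 0.745, 2.68 and 0 at 16 h, and ahk3 ahk4 medial read 0, 0 and 0.88 CPM at 0 h, 0.0893, 0.834 and 0.327 at 8 h and 0.101, 1.04 and 0.116 at 16 h. Neither medial time course passed the test at 8 h. In ahk3 ahk4 at 8 h the gene was higher in basal than in medial (log2 fold change 6.90 ± 0.93 (SE), adjusted p = 1.04e-05), the largest basal excess among the members. The locus overlaps AT1G10580 on the same strand, which was at 62.6, 129 and 139 CPM on average at 0, 8 and 16 h in WT basal, so its counts are uncertain.

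AT4G20970 was also scarce at 0 h in every series. In WT basal, AT4G20970 stood at 0, 0 and 0 CPM at 0 h, 16.8, 19.2 and 20.05 at 8 h and 2.81, 4.36 and 3.4 at 16 h. For AT4G20970, ahk3 ahk4 basal libraries stood at 0.329, 0 and 0 CPM at 0 h, 17.8, 21.2 and 17.8 at 8 h and 7.59, 4.78 and 4.33 at 16 h. The 8 h libraries of the genotypes overlapped. In WT medial, AT4G20970 stood at 0, 0 and 0 CPM at 0 h, 1.34, 0.19 and 0 at 8 h and 1.24, 0.496 and 0.0738 at 16 h. For AT4G20970, ahk3 ahk4 medial libraries stood at 0, 0 and 0 CPM at 0 h, 7.24, 1.59 and 2.07 at 8 h and 0.101, 0.348 and 0.116 at 16 h. In WT medial the rise, at least 3.75-fold by the same floor, passed (adjusted p = 0.0235) and was lost without any one of replicates 1, 2 or 3 of WT medial at 0 h or replicate 1 of WT medial at 8 h (adjusted p 0.0543 to 0.25). It was at least 35-fold higher at 8 h than at 0 h in ahk3 ahk4 medial, by the same floor, and fell after 8 h (log2 fold change -4.29 ± 0.89 (SE), adjusted p = 0.00193). At 8 h, medial segments of the mutant held more than those of the wild type (log2 fold change 3.01 ± 0.78 (SE), adjusted p = 0.0358), a call lost without any one of replicate 1 of ahk3 ahk4 medial at 8 h or replicates 2 or 3 of WT medial at 8 h (adjusted p 0.149 to 0.33). Library totals, the alignment covariate and only the groups compared lost it too (adjusted p = 0.0636, 0.0596 and 0.485).

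AT1G62975 was measurable at 0 h in every series. In WT basal, AT1G62975 stood at 7.94, 9.16 and 5.03 CPM at 0 h, 54.3, 24.3 and 37.8 at 8 h and 8.32, 5.96 and 7.4 at 16 h. For AT1G62975, ahk3 ahk4 basal libraries stood at 8.34, 9.94 and 5.8 CPM at 0 h, 32.2, 17.43 and 21 at 8 h and 3.48, 4.58 and 5.07 at 16 h. In WT medial its 9 libraries lay between 0.198 and 8.17 CPM and in ahk3 ahk4 medial between 1.01 and 5. The gene was higher in basal than in medial segments of ahk3 ahk4 at 0 h (log2 fold change 2.18 ± 0.38 (SE), adjusted p = 8.83e-05), the sole member of the 25 with that difference before the rise, and at 8 h (log2 fold change 2.71 ± 0.36 (SE), adjusted p = 1.3e-06). It fell from 8 to 16 h in all 3 tested series, by log2 fold changes of -2.50 in ahk3 ahk4 basal, -3.60 in WT medial and -1.82 in ahk3 ahk4 medial. The last of these was lost with only the groups compared (adjusted p = 0.0704). The rise of AT1G62975 passed in WT medial (log2 fold change 1.23 ± 0.37 (SE), adjusted p = 0.00775), but not without replicate 1 of WT medial at 8 h (adjusted p = 0.0524). In ahk3 ahk4 medial it passed too (log2 fold change 1.15 ± 0.38 (SE), adjusted p = 0.0161), but not without any one of replicate 3 of ahk3 ahk4 medial at 0 h or replicate 1 of ahk3 ahk4 medial at 8 h (adjusted p 0.0714 to 0.108). With only the groups compared, neither medial rise passed (adjusted p = 0.0541 in WT and 0.179 in ahk3 ahk4).

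DREB2C encodes an AP2/ERF factor that binds the dehydration-responsive element. In WT basal, DREB2C stood at 1.38, 0.102 and 0.359 CPM at 0 h, 26.1, 19.9 and 14.6 at 8 h and 6.7, 0.917 and 2.2 at 16 h. For DREB2C, ahk3 ahk4 basal libraries stood at 0.658, 0.326 and 0.766 CPM at 0 h, 30.7, 30.7 and 14 at 8 h and 2.59, 3.25 and 3.06 at 16 h. In WT medial, DREB2C stood at 0.691, 2.21 and 0.775 CPM at 0 h, 10.9, 5.52 and 11.2 at 8 h and 1.9, 1.49 and 0.148 at 16 h. For DREB2C, ahk3 ahk4 medial libraries stood at 1.24, 0.542 and 0.684 CPM at 0 h, 13.4, 14.2 and 5.77 at 8 h and 1.41, 2.09 and 0.233 at 16 h. The 8 h libraries were the highest of each series. The gene rose to 8 h in ahk3 ahk4 basal (log2 fold change 5.52 ± 0.79 (SE), adjusted p = 7.37e-07), WT medial (log2 fold change 2.81 ± 0.70 (SE), adjusted p = 0.00145) and ahk3 ahk4 medial (log2 fold change 3.77 ± 0.73 (SE), adjusted p = 9.65e-05). It fell in all 3 by 16 h, with log2 fold changes of -3.18, -3.01 and -3.25. The basal-medial difference in ahk3 ahk4 at 8 h did not pass (log2 fold change 1.22 ± 0.60 (SE), adjusted p = 0.196).

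CGA1 is a GATA factor of chloroplast development whose transcript is induced by cytokinin. In WT basal, CGA1 stood at 2.65, 2.85 and 2.06 CPM at 0 h, 25.6, 17.9 and 16.6 at 8 h and 2.81, 5.5 and 2.2 at 16 h. For CGA1, ahk3 ahk4 basal libraries stood at 1.43, 1.63 and 1.64 CPM at 0 h, 18.9, 16.7 and 14.1 at 8 h and 3.04, 3.34 and 3.17 at 16 h. The genotypes overlapped at 8 h, with a mutant mean 0.83 times that of the wild type. In WT medial, CGA1 stood at 15.4, 10.9 and 9.56 CPM at 0 h, 31.6, 21.8 and 24.8 at 8 h and 10.5, 9.32 and 4.35 at 16 h. For CGA1, ahk3 ahk4 medial libraries stood at 5.18, 2.27 and 7.04 CPM at 0 h, 23.5, 34.1 and 13.8 at 8 h and 13.9, 9.16 and 10.2 at 16 h. At 0 h all medial libraries of the mutant lay below all of the wild type (log2 fold change -1.40 ± 0.37 (SE), adjusted p = 0.0182), a call lost without any one of replicate 2 of ahk3 ahk4 medial at 0 h or replicate 1 of WT medial at 0 h (adjusted p 0.0971 to 0.154). The difference was not detected at 8 h (log2 fold change -0.10 ± 0.35, SE) or at 16 h (0.37 ± 0.36). CGA1 rose to 8 h in WT medial (log2 fold change 1.04 ± 0.35 (SE), adjusted p = 0.0179), the call whose losses are given above. It rose also in ahk3 ahk4 basal (log2 fold change 3.55 ± 0.42 (SE), adjusted p = 1.08e-08) and in ahk3 ahk4 medial (log2 fold change 2.34 ± 0.37 (SE), adjusted p = 4.54e-06), and it fell again in both, by -2.46 and -1.22. The fall in ahk3 ahk4 medial was lost without any one of replicates 2 or 3 of ahk3 ahk4 medial at 16 h or replicates 1 or 2 of ahk3 ahk4 medial at 8 h (adjusted p 0.0526 to 0.174).

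IAA5 encodes an Aux/IAA protein, a repressor of auxin responses whose gene is itself switched on by auxin. In WT basal, IAA5 stood at 2.42, 3.36 and 5.21 CPM at 0 h, 47.5, 30.1 and 39.4 at 8 h and 4.97, 4.13 and 5.4 at 16 h. For IAA5, ahk3 ahk4 basal libraries stood at 0, 0 and 0.219 CPM at 0 h, 15.5, 10.6 and 20.1 at 8 h and 5.09, 5.54 and 5.7 at 16 h. All mutant libraries at 0 h and at 8 h lay below the wild-type ones, and the 16 h libraries overlapped. The rule favoured high wild-type values at 8 h, and the basal genotypes were not tested. The mutant mean at 8 h was 0.403 times the wild-type mean, the lowest such ratio among the members. In WT medial, IAA5 stood at 14.5, 16.7 and 15 CPM at 0 h, 3.05, 0.476 and 3.99 at 8 h and 3.64, 1.09 and 0.885 at 16 h, the opposite direction to the basal segment. For IAA5, ahk3 ahk4 medial libraries stood at 0.621, 0.65 and 0.195 CPM at 0 h, 0.983, 0.91 and 0.436 at 8 h and 0, 1.86 and 0.116 at 16 h, at most 1.86 CPM throughout. IAA5 fell from 0 to 8 h in WT medial (log2 fold change -2.64 ± 0.61 (SE), adjusted p = 0.000722). The gene was in ahk3 ahk4 basal 191-fold higher at 8 h than at 0 h by counts (95% interval 52.6 to 1581, 2 counts at 0 h), and its fall to 16 h did not pass (log2 fold change -1.58 ± 0.58 (SE), adjusted p = 0.106). At 0 h it was lower in ahk3 ahk4 medial than in WT medial (log2 fold change -5.07 ± 0.73 (SE), adjusted p = 3.05e-05), the largest genotype difference downward. IAA5 overlaps CYCA2;3 on the opposite strand, which averaged 0.719 to 1.85 CPM in WT basal.

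A list of early auxin response genes held 12, IAA5 among them. In ahk3 ahk4 basal 7 of the 12 rose and 2 fell from 0 to 8 h. In WT medial 0 rose and 10 fell, and in ahk3 ahk4 medial 0 rose and 5 fell. The shares over all genes were 23.3%, 20.6% and 20.7% up and 19.7%, 19.4% and 17.3% down. The median log2 fold changes were 1.66, -2.42 and -0.88, the first 1.61 with genes of 0 counts in a group at their bounds. IAA1 rose in ahk3 ahk4 basal (log2 fold change 1.97 ± 0.35, SE) and fell in WT medial (-2.11 ± 0.34). In WT basal IAA1 was at 42.4, 49 and 25.4 CPM at 0 h, 39.9, 20.9 and 35.6 at 8 h and 27.4, 11.6 and 14.3 at 16 h, with overlapping 0 h and 8 h libraries, so the large 8 h excess of IAA5 over 0 h in that series was not shared by IAA1. After 8 h, 1 rose and 1 fell in ahk3 ahk4 basal, 0 changed in WT medial, and 1 rose and 4 fell in ahk3 ahk4 medial. Of all genes, 2.7%, 10.4% and 5.04% rose and 2.92%, 7.94% and 5.81% fell in that step.

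FKF1 encodes a blue-light receptor and F-box protein that acts in the clock and in flowering time. In WT basal, FKF1 stood at 2.88, 3.76 and 0.988 CPM at 0 h, 12.7, 11.4 and 12.2 at 8 h and 0, 0.344 and 0 at 16 h. For FKF1, ahk3 ahk4 basal libraries stood at 2.3, 0.978 and 2.85 CPM at 0 h, 12.8, 10.1 and 12.3 at 8 h and 0.357, 0 and 0.106 at 16 h. In WT medial, FKF1 stood at 0.921, 3.21 and 0.387 CPM at 0 h, 7.93, 4.76 and 9.07 at 8 h and 0, 0 and 0.295 at 16 h. For FKF1, ahk3 ahk4 medial libraries stood at 2.48, 8.88 and 3.91 CPM at 0 h, 5.27, 11.5 and 6.1 at 8 h and 0.302, 0 and 0 at 16 h. The 16 h libraries were at or near 0 in all 4 series, with 0.947%, 1.32%, 1.36% and 1.32% of the 8 h mean left in WT basal, ahk3 ahk4 basal, WT medial and ahk3 ahk4 medial. FKF1 is the member with the deepest fall in each of the 4. It fell in ahk3 ahk4 basal (log2 fold change -6.18 ± 0.89 (SE), adjusted p = 1.55e-05) and WT medial (log2 fold change -5.91 ± 0.92 (SE), adjusted p = 1.84e-05), and it was 71.8-fold lower by counts in ahk3 ahk4 medial (95% interval 24.3 to 350.3, 3 counts at 16 h). The rise was smaller: it passed in ahk3 ahk4 basal (log2 fold change 2.65 ± 0.69 (SE), adjusted p = 0.00194), where it was lost with the alignment covariate as given above. It passed in WT medial (log2 fold change 2.18 ± 0.69 (SE), adjusted p = 0.0108), a call lost without any one of replicates 1 or 3 of WT medial at 0 h or replicate 3 of WT medial at 8 h (adjusted p 0.0557 to 0.0648). It did not pass in ahk3 ahk4 medial (log2 fold change 0.67 ± 0.64 (SE), adjusted p = 0.434), where the 0 h libraries overlapped those of 8 h. FKF1 overlaps MAP70-1 on the opposite strand, at 90.0 to 123 CPM in WT basal, and its counts are uncertain for that.

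Of 12 listed clock genes, 2 rose and 5 fell from 0 to 8 h in ahk3 ahk4 basal, 1 and 8 in WT medial, and 2 and 6 in ahk3 ahk4 medial. Over all genes 23.3%, 20.6% and 20.7% rose and 19.7%, 19.4% and 17.3% fell, and the listed genes' share that rose was not above that background. After 8 h, 3 rose and 5 fell, 3 and 3, and 6 and 4. Of all genes, 2.7%, 10.4% and 5.04% rose and 2.92%, 7.94% and 5.81% fell. ELF4, an evening gene, rose to 8 h in all 3 series (log2 fold changes 0.95, 1.47 and 1.77) and fell by 16 h in all 3 (-3.26, -4.00 and -6.06). GI, the partner protein of FKF1, fell by 16 h in all 3 as well (-3.67, -1.92 and -1.53). It stood at 31.2, 33.1 and 48.9 CPM at 0 h, 21, 12.9 and 18.17 at 8 h and 1.4, 2.29 and 2.1 at 16 h in WT basal, already lower at 8 h than at 0 h. The morning genes CCA1 and LHY moved the other way: both fell to 8 h and rose to 16 h in all 3 series, CCA1 by 5.39, 5.52 and 6.06 on the log2 scale from 8 to 16 h.

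UGT84A1 encodes a glucosyltransferase that makes glucose esters of hydroxycinnamic acids such as sinapate. In WT basal, UGT84A1 stood at 0, 0 and 0.0898 CPM at 0 h, 377, 332 and 287 at 8 h and 81.9, 56.7 and 65.9 at 16 h, the largest ratio of 8 h to 0 h among the members. For UGT84A1, ahk3 ahk4 basal libraries stood at 0.549, 2.77 and 2.19 CPM at 0 h, 281, 493 and 256 at 8 h and 105, 144 and 107 at 16 h. The 8 h libraries overlapped, and all mutant libraries at 0 h and 16 h lay above the wild-type ones. Low wild-type levels at those hours were part of the rule, and the basal difference was not tested. In WT medial, UGT84A1 stood at 0, 0.1 and 0.387 CPM at 0 h, 85.7, 68.6 and 74.9 at 8 h and 43.6, 17.65 and 7.45 at 16 h. For UGT84A1, ahk3 ahk4 medial libraries stood at 1.45, 1.52 and 2.64 CPM at 0 h, 116, 115 and 49.7 at 8 h and 8.65, 14.8 and 12.3 at 16 h. It rose to 8 h in ahk3 ahk4 basal (log2 fold change 7.78 ± 0.59 (SE), adjusted p = 8.23e-12), WT medial (log2 fold change 8.78 ± 0.73 (SE), adjusted p = 6.67e-11) and ahk3 ahk4 medial (log2 fold change 5.68 ± 0.55 (SE), adjusted p = 1.23e-09). In ahk3 ahk4 at 8 h it was higher in basal than in medial (log2 fold change 1.96 ± 0.43 (SE), adjusted p = 0.00206). Its fall passed in all 3 series, by -1.66, -1.75 and -3.09, and in ahk3 ahk4 basal it was lost without any one of replicates 1 or 3 of ahk3 ahk4 basal at 16 h or replicate 2 of ahk3 ahk4 basal at 8 h (adjusted p 0.0511 to 0.107). UGT84A1 overlaps AT4G15475 on the opposite strand, which was at 12.9 to 25.1 CPM on average in WT basal.

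AT2G22590 belongs to the same superfamily of UDP-glycosyltransferases, with no substrate given in the annotation. In WT basal, AT2G22590 stood at 0.46, 0.204 and 0 CPM at 0 h, 89.1, 101 and 101 at 8 h and 27.8, 16.2 and 18.3 at 16 h. For AT2G22590, ahk3 ahk4 basal libraries stood at 0.329, 0 and 0.109 CPM at 0 h, 115, 80.0 and 83.5 at 8 h and 20.4, 34.1 and 29.9 at 16 h. Its medial libraries reached at most 8.94 CPM in the wild type and 4.68 in the mutant, below every basal 8 h library. The difference between basal and medial in ahk3 ahk4 at 8 h was a log2 fold change of 4.71 ± 0.63 (SE), adjusted p = 4.44e-06. The fall in ahk3 ahk4 basal passed only narrowly (log2 fold change -1.80 ± 0.54 (SE), adjusted p = 0.0468) and was lost without any one of replicates 1, 2 or 3 of ahk3 ahk4 basal at 16 h or replicates 1, 2 or 3 of ahk3 ahk4 basal at 8 h (adjusted p 0.0681 to 0.203). In WT medial the 8 h to 0 h ratio was 164-fold by counts (95% interval 29.2 to 6527, 1 count at 0 h).

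ELI3-2, also named cinnamyl alcohol dehydrogenase 8, belongs to a family of alcohol dehydrogenases of phenylpropanoid metabolism and takes its name from activation by pathogen elicitors. In WT basal, ELI3-2 stood at 0, 0 and 0 CPM at 0 h, 9.78, 9.82 and 13.4 at 8 h and 4.21, 0.802 and 1.5 at 16 h. For ELI3-2, ahk3 ahk4 basal libraries stood at 0, 0 and 0 CPM at 0 h, 4.54, 4.71 and 17.45 at 8 h and 4.2, 1.81 and 2.96 at 16 h. The highest mutant library at 8 h lay above all others of the gene. It was at least 73.3-fold higher at 8 h than at 0 h in ahk3 ahk4 basal, by the same floor. No medial library passed 3.48 CPM, and in WT medial the 16 h mean was 176% of the 8 h mean. AT4G11210, a dirigent-like gene of a family that guides lignan coupling, was in contrast abundant at 0 h. In WT medial, AT4G11210 stood at 226, 189 and 199 CPM at 0 h, 246, 216 and 293 at 8 h and 34.9, 27.9 and 36.5 at 16 h. For AT4G11210, ahk3 ahk4 medial libraries stood at 38.4, 41.6 and 59.5 CPM at 0 h, 71.6, 92.6 and 179 at 8 h and 21.5, 16.8 and 13.5 at 16 h. The mutant medial libraries lay below all wild-type ones at each hour (at 0 h log2 fold change -2.25 ± 0.32 (SE), adjusted p = 2.42e-05). At 8 h the same difference was smaller (log2 fold change -1.17 ± 0.31 (SE), adjusted p = 0.0377) and was lost without any one of replicates 1 or 2 of ahk3 ahk4 medial at 8 h or replicates 2 or 3 of WT medial at 8 h (adjusted p 0.058 to 0.282). With only the groups compared it was also lost (adjusted p = 0.45). In WT basal AT4G11210 stood at 85.1, 32.2 and 37.6 CPM at 0 h, 249, 355 and 390.4 at 8 h and 52.4, 51.2 and 43.5 at 16 h, and it fell from 8 to 16 h in ahk3 ahk4 basal, WT medial and ahk3 ahk4 medial by -2.79, -2.94 and -2.81. Of 7 general phenylpropanoid and lignin genes, 4 rose and 2 fell to 8 h in each of the 3 series (PAL1, PAL2, C4H and 4CL3 up, 4CL1 and CAD5 down). The shares of all genes to 8 h were 23.3%, 20.6% and 20.7% up and 19.7%, 19.4% and 17.3% down. After 8 h 0 of the 7 changed in ahk3 ahk4 basal, and 2 fell in each medial series, where 7.94% (WT) and 5.81% (ahk3 ahk4) of all genes fell.

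OPR2 is a 12-oxophytodienoate reductase outside the branch of jasmonate synthesis that OPR3 serves, and a gene of responses to oxylipins and xenobiotics. In WT basal, OPR2 stood at 2.65, 3.36 and 2.69 CPM at 0 h, 63.5, 47.4 and 38.2 at 8 h and 11.2, 8.02 and 10.2 at 16 h. For OPR2, ahk3 ahk4 basal libraries stood at 1.76, 1.14 and 0.328 CPM at 0 h, 16.6, 16.5 and 29.5 at 8 h and 12.1, 17.39 and 15.1 at 16 h. At 8 h all mutant basal libraries lay below all wild-type ones (mean ratio 0.426), whereas at 16 h all lay above. The rule favoured high wild-type values at 8 h and low ones at 16 h, and neither difference was tested. In the medial series OPR2 rose to 8 h (log2 fold change 3.03 ± 0.41 (SE), adjusted p = 2.41e-07 in WT, log2 fold change 2.75 ± 0.41 (SE), adjusted p = 1.52e-06 in ahk3 ahk4). It fell in WT medial (log2 fold change -1.59 ± 0.38 (SE), adjusted p = 0.00289), while 71.2% and 66.3% of the 8 h mean were left in ahk3 ahk4 basal and medial, where the fall did not pass. OPR2 overlaps its near copy OPR1 on the same strand, so reads can be split between the 2 genes, and OPR1 averaged 25.9, 129 and 75.8 CPM in WT basal at 0, 8 and 16 h. It overlaps AT1G76700 on the opposite strand as well, at 20.5, 10.9 and 8.16 CPM, so its counts are uncertain. Of 14 listed detoxification genes, OPR1 and OPR2 included, 8, 7 and 3 rose to 8 h in ahk3 ahk4 basal, WT medial and ahk3 ahk4 medial, and 0, 0 and 1 fell. Over all genes 23.3%, 20.6% and 20.7% rose, so the count in ahk3 ahk4 medial is near that background. After 8 h, 1 fell in ahk3 ahk4 basal, 1 in WT medial (OPR2) and 0 in ahk3 ahk4 medial, where 1 rose. In that step 2.92%, 7.94% and 5.81% of all genes fell, and 5.04% rose in ahk3 ahk4 medial.

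SULTR1;2 encodes the main sulfate uptake transporter of the root. In WT basal, SULTR1;2 stood at 0.46, 7.73 and 0.18 CPM at 0 h, 115, 67.2 and 115 at 8 h and 33, 20.6 and 18.8 at 16 h. For SULTR1;2, ahk3 ahk4 basal libraries stood at 1.32, 1.14 and 0.328 CPM at 0 h, 61.8, 12.5 and 64.4 at 8 h and 28, 11.6 and 41.4 at 16 h. Replicate 2 was the lowest of the 8 h libraries in both, and in the mutant it overlapped 16 h. In WT medial, SULTR1;2 stood at 0.921, 4.01 and 0.258 CPM at 0 h, 9.999, 21.1 and 0.933 at 8 h and 6.13, 1.39 and 0.811 at 16 h. For SULTR1;2, ahk3 ahk4 medial libraries stood at 1.45, 0.975 and 0.195 CPM at 0 h, 4.11, 2.43 and 10.5 at 8 h and 5.13, 8.81 and 11.9 at 16 h. It rose in ahk3 ahk4 basal (log2 fold change 5.75 ± 1.17 (SE), adjusted p = 0.000268) and did not pass in the medial series at adjusted p = 0.0694 (WT) and 0.0646 (ahk3 ahk4). At 8 h the basal segment of ahk3 ahk4 held more than the medial (log2 fold change 3.07 ± 0.95 (SE), adjusted p = 0.0321), a call lost without any one of replicates 1 or 3 of ahk3 ahk4 basal at 8 h or replicates 1 or 2 of ahk3 ahk4 medial at 8 h (adjusted p 0.075 to 0.119). Of 8 nitrate and sulfate genes, SULTR1;2 included, 7 rose to 8 h in ahk3 ahk4 basal, 7 in WT medial and 6 in ahk3 ahk4 medial, and 0 fell. To 8 h, 23.3%, 20.6% and 20.7% of all genes rose. After 8 h, 3 of the 8 fell in WT medial (APR1, APR3 and NRT2.1) and 0 in either mutant series, and 1 rose in each of the 3. The all-gene shares were 7.94% down in WT medial and 2.7%, 10.4% and 5.04% up in the 3 series. The count that rose in WT medial is near that background. APR3, an adenosine phosphosulfate reductase, stood at 15.2, 24 and 18.6 CPM at 0 h, 99.5, 88.9 and 66.6 at 8 h and 29.2, 23.4 and 34 at 16 h in WT basal, highest at 8 h as SULTR1;2 was.

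AT4G34950 is annotated as a major facilitator superfamily transporter. In WT basal, AT4G34950 stood at 11.9, 8.14 and 8.17 CPM at 0 h, 273, 268 and 249 at 8 h and 59.2, 50.7 and 56 at 16 h. For AT4G34950, ahk3 ahk4 basal libraries stood at 16, 15.3 and 12.6 CPM at 0 h, 272, 175 and 260.0 at 8 h and 42.1, 45 and 85 at 16 h. In WT medial, AT4G34950 stood at 20.5, 12.9 and 9.17 CPM at 0 h, 395, 428 and 411 at 8 h and 99.4, 115 and 89.8 at 16 h. For AT4G34950, ahk3 ahk4 medial libraries stood at 24.2, 33.6 and 23.4 CPM at 0 h, 165, 296 and 307 at 8 h and 154, 173 and 130 at 16 h. The 8 h libraries stood highest in the first 3 series, and in ahk3 ahk4 medial 1 library of 8 h lay below 1 of 16 h. It rose to 8 h in ahk3 ahk4 basal (log2 fold change 4.15 ± 0.28 (SE), adjusted p = 7.59e-14), WT medial (log2 fold change 4.79 ± 0.29 (SE), adjusted p = 3.13e-15) and ahk3 ahk4 medial (log2 fold change 3.29 ± 0.27 (SE), adjusted p = 7.18e-12). The fall in ahk3 ahk4 medial was the smallest of the 3 (log2 fold change -0.85 ± 0.25 (SE), adjusted p = 0.0225) and was lost without any one of replicates 1 or 3 of ahk3 ahk4 medial at 16 h or replicates 2 or 3 of ahk3 ahk4 medial at 8 h (adjusted p 0.0656 to 0.118). EXO70H1 is a subunit of the exocyst, which tethers secretory vesicles to the plasma membrane. In WT basal, EXO70H1 stood at 0.345, 1.22 and 0.628 CPM at 0 h, 38.8, 32.6 and 34.7 at 8 h and 8.75, 6.76 and 7.8 at 16 h. For EXO70H1, ahk3 ahk4 basal libraries stood at 0.549, 1.96 and 0 CPM at 0 h, 42.6, 49.2 and 19.4 at 8 h and 28.3, 18.6 and 12.4 at 16 h. Its medial libraries reached at most 8.13 CPM, and the basal excess in ahk3 ahk4 at 8 h (log2 fold change 2.47 ± 0.74 (SE), adjusted p = 0.0246) was lost without any one of replicates 1 or 2 of ahk3 ahk4 basal at 8 h or replicates 1, 2 or 3 of ahk3 ahk4 medial at 8 h (adjusted p 0.0524 to 0.0909).

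RNS1, AT3G56260 and AT5G62360 shared a high 0 h level in the medial segment of the mutant. RNS1 encodes a secreted ribonuclease induced by wounding and by phosphate starvation. In WT basal, RNS1 stood at 9.44, 7.84 and 11 CPM at 0 h, 94.1, 60.7 and 123 at 8 h and 12.6, 9.29 and 4.8 at 16 h. For RNS1, ahk3 ahk4 basal libraries stood at 9.55, 7.01 and 16.7 CPM at 0 h, 64.3, 72.8 and 154 at 8 h and 16.3, 11.5 and 17.64 at 16 h. In WT medial, RNS1 stood at 2.42, 6.92 and 2.45 CPM at 0 h, 34.5, 31.7 and 6.19 at 8 h and 8.36, 7.04 and 4.57 at 16 h. For RNS1, ahk3 ahk4 medial libraries stood at 21.5, 41.5 and 30.4 CPM at 0 h, 40.9, 36.3 and 23.5 at 8 h and 9.66, 8.93 and 11.2 at 16 h. At 0 h every ahk3 ahk4 medial library lay above every WT medial one (log2 fold change 2.83 ± 0.47 (SE), adjusted p = 0.000218). The rise to 8 h passed in ahk3 ahk4 basal (log2 fold change 3.29 ± 0.46 (SE), adjusted p = 5.17e-07) and WT medial (log2 fold change 2.40 ± 0.46 (SE), adjusted p = 8.93e-05), and not in ahk3 ahk4 medial (log2 fold change 0.17 ± 0.42 (SE), adjusted p = 0.779). The difference between the 2 medial rises was -2.23 ± 0.62 (SE), adjusted p = 0.0414, and it was lost without any one of replicates 2 or 3 of ahk3 ahk4 medial at 0 h, replicates 1, 2 or 3 of ahk3 ahk4 medial at 8 h, replicates 1 or 3 of WT medial at 0 h or replicates 1 or 2 of WT medial at 8 h (adjusted p 0.0522 to 0.112). Only the groups compared, no filter on low counts and the replicate block lost it too (adjusted p = 0.156, 0.0864 and 0.0514).

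AT5G62360 is annotated in the family of invertase and pectin methylesterase inhibitors, proteins of the cell wall. In WT basal, AT5G62360 stood at 3.91, 4.78 and 3.5 CPM at 0 h, 26.1, 22.8 and 15.5 at 8 h and 5.08, 3.32 and 2.6 at 16 h. For AT5G62360, ahk3 ahk4 basal libraries stood at 8.34, 4.56 and 7.55 CPM at 0 h, 30.4, 42.8 and 24.3 at 8 h and 6.7, 6.78 and 4.44 at 16 h. In WT medial, AT5G62360 stood at 4.03, 4.72 and 2.71 CPM at 0 h, 34.3, 27 and 18 at 8 h and 12.7, 9.52 and 14 at 16 h. For AT5G62360, ahk3 ahk4 medial libraries stood at 43.7, 60.3 and 33.1 CPM at 0 h, 77.1, 55.7 and 59.4 at 8 h and 6.64, 7.19 and 4.53 at 16 h. The mutant medial libraries were the highest of all at 0 h and at 8 h, did not rise by the test (log2 fold change 0.53 ± 0.29 (SE), adjusted p = 0.147) and at 16 h lay below all WT medial ones. Against the wild type they were higher at 0 h (log2 fold change 3.45 ± 0.33 (SE), adjusted p = 1.03e-08). They were higher also at 8 h (log2 fold change 1.32 ± 0.29 (SE), adjusted p = 0.0123), a call lost without any one of replicate 1 of ahk3 ahk4 medial at 8 h or replicates 2 or 3 of WT medial at 8 h (adjusted p 0.0603 to 0.0925). That call was lost as well with only the groups compared (adjusted p = 0.41). The mutant medial libraries were lower at 16 h (log2 fold change -1.09 ± 0.31 (SE), adjusted p = 0.0411), a call lost without any one of replicates 1, 2 or 3 of ahk3 ahk4 medial at 16 h or replicates 1, 2 or 3 of WT medial at 16 h (adjusted p 0.0539 to 0.208). Library totals and the alignment covariate also lost it (adjusted p = 0.0795 and 0.0888). The medial genotypes differed in the rise to 8 h (log2 fold change -2.12 ± 0.43 (SE), adjusted p = 0.00383) and in the fall after it (log2 fold change -2.41 ± 0.42 (SE), adjusted p = 0.000512).

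AT3G56260 encodes an uncharacterized protein. In WT basal, AT3G56260 stood at 0.921, 0.712 and 0.539 CPM at 0 h, 18.17, 23.7 and 31.5 at 8 h and 3.78, 5.27 and 4.2 at 16 h. For AT3G56260, ahk3 ahk4 basal libraries stood at 5.16, 10.3 and 11.9 CPM at 0 h, 25.1, 21.6 and 22.5 at 8 h and 12.1, 6.5 and 10.6 at 16 h. In WT medial, AT3G56260 stood at 0.806, 0.602 and 0.517 CPM at 0 h, 36.8, 39.9 and 35 at 8 h and 11.4, 14.1 and 4.2 at 16 h. For AT3G56260, ahk3 ahk4 medial libraries stood at 17.2, 28.9 and 35 CPM at 0 h, 41.2, 31.6 and 29.4 at 8 h and 21.8, 16.4 and 11.7 at 16 h. All 6 mutant libraries at 0 h exceeded all 6 wild-type ones, of which the rule favoured low values in the basal ones. In the medial segment the log2 fold change between genotypes was 5.24 ± 0.44 (SE), adjusted p = 1.02e-09. By 8 h the medial difference was -0.12 ± 0.32 (SE), and the genotype difference in the rise was -5.36 ± 0.55 (SE), adjusted p = 2.14e-07. AT3G56250, on the opposite strand and overlapping, averaged 1.01 to 2.19 CPM in WT basal.

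AT4G16146 is annotated as a protein related to cAMP-regulated phosphoprotein 19, in animals an inhibitor of protein phosphatase 2A. In WT basal, AT4G16146 stood at 11.4, 11.8 and 8.35 CPM at 0 h, 157, 204 and 193 at 8 h and 31.1, 23.7 and 31.3 at 16 h. For AT4G16146, ahk3 ahk4 basal libraries stood at 17.45, 21 and 20.5 CPM at 0 h, 132, 95.6 and 141 at 8 h and 42.1, 39.6 and 40.1 at 16 h. In WT medial, AT4G16146 stood at 6.56, 5.82 and 6.97 CPM at 0 h, 141, 154 and 143 at 8 h and 13.9, 13 and 14.7 at 16 h. For AT4G16146, ahk3 ahk4 medial libraries stood at 17.5, 14.2 and 24.1 CPM at 0 h, 126, 117 and 108 at 8 h and 16.9, 15.5 and 11.6 at 16 h. The 3 replicates of each group were close together, and in every series the 8 h libraries stood apart from the rest. Its rise in WT medial (log2 fold change 4.41 ± 0.25 (SE), adjusted p = 4.83e-16) exceeded that in ahk3 ahk4 medial (log2 fold change 2.69 ± 0.23 (SE), adjusted p = 1.27e-11), and the difference passed (log2 fold change -1.73 ± 0.31 (SE), adjusted p = 0.00148). After 8 h it fell less in the basal than in the medial segment of ahk3 ahk4 (log2 fold change 1.41 ± 0.30 (SE), adjusted p = 0.00753). AT2G34930, of the LRR disease resistance family, was low throughout. In WT basal, AT2G34930 stood at 4.26, 0.611 and 1.89 CPM at 0 h, 18.17, 13.8 and 21 at 8 h and 1.95, 2.98 and 0.4 at 16 h. In WT medial, AT2G34930 libraries of 0 h, 8.52, 10.8 and 4.91 CPM, overlapped those of 8 h, 11.46, 13.1 and 7.38 CPM, and the rise did not pass in either medial series. It fell by 16 h in WT medial (log2 fold change -3.68 ± 0.62 (SE), adjusted p = 5.82e-05).

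AT5G55620 and AT4G18422, both uncharacterized, and the noncoding RNA AT5G09735 complete the set. AT5G55620 was more abundant in medial than in basal segments: in WT basal it stood at 0.576, 0.712 and 0.0898 CPM at 0 h, 25.5, 21.8 and 34 at 8 h and 2.05, 4.7 and 2.3 at 16 h, and in WT medial at 13.6, 17.7 and 10.5 CPM at 0 h, 111, 110.2 and 103 at 8 h and 20.9, 40.0 and 25.1 at 16 h. Within ahk3 ahk4 its basal level was below the medial level at 0, 8 and 16 h, by log2 fold changes of -6.06, -2.36 and -3.56. AT5G09735 was also higher in medial segments: in WT basal it stood at 1.84, 2.24 and 1.35 CPM at 0 h, 16, 25.3 and 16.1 at 8 h and 4.11, 1.95 and 4.1 at 16 h, and in WT medial at 7.02, 9.73 and 12.1 CPM at 0 h, 87.7, 84.9 and 191 at 8 h and 21.2, 26.3 and 27.6 at 16 h. It rose to 8 h in ahk3 ahk4 basal, WT medial and ahk3 ahk4 medial by 5.00, 3.64 and 2.71 on the log2 scale. AT4G18422 was higher in the basal segment of the mutant, without a test: in WT basal it stood at 0.23, 0.305 and 0 CPM at 0 h, 108, 80.5 and 76.1 at 8 h and 17, 8.48 and 10.3 at 16 h. For AT4G18422, ahk3 ahk4 basal libraries stood at 0, 0 and 0 CPM at 0 h, 129, 319 and 144 at 8 h and 126, 109.8 and 43.6 at 16 h. All mutant libraries of 8 h and of 16 h lay above the wild-type ones of the same hour, and the mean ratios, 2.23 and 7.55, were the highest among the members. The rule itself favoured low wild-type values at 16 h. In medial segments the 8 h libraries of the genotypes overlapped, the 16 h mean was 10.7 CPM in the mutant and 16 CPM in the wild type, and the difference did not pass at 8 h (log2 fold change 1.41 ± 0.57 (SE), adjusted p = 0.185) or at 16 h (log2 fold change -0.67 ± 0.59 (SE), adjusted p = 0.612). In ahk3 ahk4 basal AT4G18422 was at least 1547-fold higher at 8 h than at 0 h, where the group held 0 counts.

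The basal and medial segments were compared within ahk3 ahk4, where the rule used no library. At 0 h, 1 member was higher in basal, AT1G62975, and 9 were lower (5.15% and 7.23% of genes), with a median log2 difference of -1.53, or -1.49 with near-zero genes at their bounds. The count that was higher is near the background. Without 1 library, 6 to 11 were lower. Of the 9, RNS1, CGA1, OPR2, AT4G34950 and ELI3-2 each lost the call in at least 1 alternative, with adjusted p of up to 0.273. At 8 h, 11 were higher and 4 lower (5.88% and 7.35%), with a median of 1.12 against 0.03 over all genes. The 11 were AT1G10585, IAA5, AT1G62975, SULTR1;2, RNS1, AT2G22590, MYB12, EXO70H1, UGT84A1, AT4G20970 and ELI3-2, and the 4 were AT5G09735, MYB111, AT5G55620 and AT5G62360. RNS1, AT4G20970, MYB12, EXO70H1, SULTR1;2, AT5G09735 and AT5G62360 each lost the call without at least 1 of the 6 libraries, with adjusted p of up to 0.172. Without replicate 2 of ahk3 ahk4 medial at 8 h 7 were higher, and without replicate 3 of ahk3 ahk4 basal at 8 h 2 were lower. At 16 h, 11 were higher and 5 lower (13.5% and 13%), and 3 were lower without replicate 3 of ahk3 ahk4 basal at 16 h or without replicate 1 of ahk3 ahk4 medial at 16 h. The rise from 0 to 8 h was larger in basal than in medial for 7 members and smaller for 0 (2.56% and 2.11% of genes). The 7 were RNS1, IAA5, AT5G62360, AT5G55620, AT2G22590, AT1G10585 and ELI3-2, and the last 2 lost the call without replicate 3 of ahk3 ahk4 medial at 0 h (adjusted p = 1 and 0.0579). AT2G22590 lost it when any of 11 of the 12 libraries was left out (adjusted p 0.0554 to 0.193), and with RLE factors, library totals, no filter on low counts or the alignment covariate (adjusted p 0.0501 to 0.0967). After 8 h, 1 member differed upward, AT4G16146, and 1 downward, AT4G34950 (2.63% and 1.97%), counts near the background. The downward call was lost without any one of replicates 1 or 2 of ahk3 ahk4 basal at 16 h, replicates 1 or 3 of ahk3 ahk4 basal at 8 h, replicates 1 or 2 of ahk3 ahk4 medial at 16 h or replicate 1 of ahk3 ahk4 medial at 8 h (adjusted p 0.071 to 0.134). In the wild type, given as values, the mean at 8 h was higher in basal than in medial for 18 of 25 members, with a median ratio of 2.14. The rule favoured high wild-type basal values at 8 h, so that count is favoured by the choice and was not tested. In ahk3 ahk4 the mean was higher in basal for 18, with a median ratio of 2.02. Shares over all genes are not given for these counts of means.

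**Figure D3:**
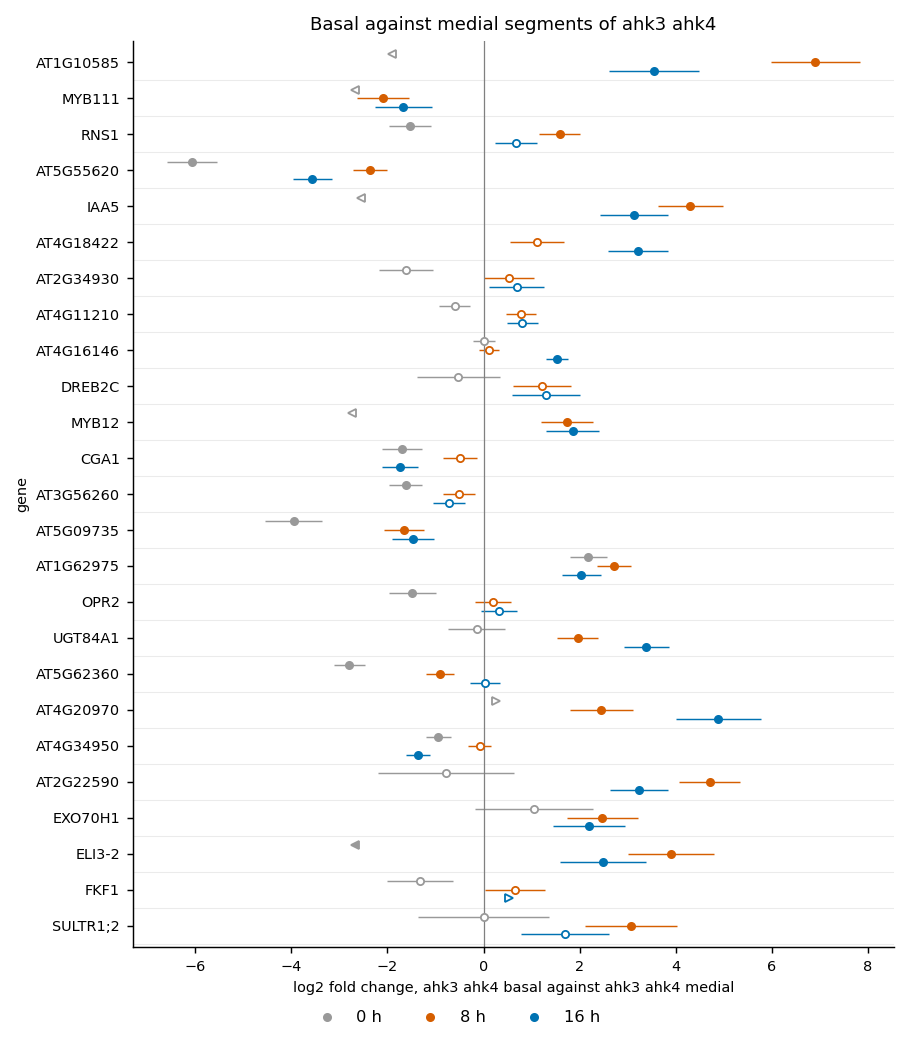
Log2 fold change between basal and medial segments of ahk3 ahk4 at 0, 8 and 16 h for the 25 members, with the symbols of the plot of rise and fall. AT1G10585 has the largest basal excess at 8 h and AT5G55620 the largest medial excess at all 3 hours among fitted values, and AT4G18422 at 0 h is left out because both groups held 3 counts or fewer.

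Between genotypes, the medial segments were compared at each hour. At 0 h, 6 members were higher in ahk3 ahk4 and 3 lower (2.61% and 3.16% of genes): RNS1, AT3G56260, AT5G62360, AT4G16146, UGT84A1 and ELI3-2 were higher, and IAA5, AT4G11210 and CGA1 were lower. The UGT84A1 call was lost without any one of replicate 3 of ahk3 ahk4 medial at 0 h or replicates 1 or 2 of WT medial at 0 h (adjusted p 0.0856 to 0.117), and the ELI3-2 call, at least 6.95-fold against 0 counts, without any one of replicates 2 or 3 of ahk3 ahk4 medial at 0 h or replicates 1, 2 or 3 of WT medial at 0 h (adjusted p 0.0598 to 0.365). At 8 h, 2 were higher, AT5G62360 and AT4G20970, and 1 lower, AT4G11210 (1.9% and 0.363%). At 16 h, 0 were higher and 1, AT5G62360, was lower (1.51% and 1.81%), a share close to the background. From 0 to 8 h the rise was smaller in ahk3 ahk4 medial than in WT medial for 5 members and larger for 0 (1.15% and 1.92%): AT3G56260, RNS1, AT5G62360, AT4G16146 and AT4G34950. Without replicate 1 of ahk3 ahk4 medial at 8 h, or without replicate 3 of WT medial at 0 h, 3 of these passed. After 8 h, 2 differed upward, AT4G34950 and AT1G62975, and 2 downward, AT4G20970 and AT5G62360 (4.21% and 6.91%). These counts are near the background. The AT4G34950 call was lost without any one of replicates 1 or 2 of ahk3 ahk4 medial at 16 h, replicate 1 of ahk3 ahk4 medial at 8 h, replicates 1 or 3 of WT medial at 16 h or replicate 3 of WT medial at 8 h (adjusted p 0.0556 to 0.103), and that of AT1G62975 without any one of replicates 1, 2 or 3 of ahk3 ahk4 medial at 16 h, replicates 2 or 3 of ahk3 ahk4 medial at 8 h, replicates 1 or 2 of WT medial at 16 h or replicates 1 or 2 of WT medial at 8 h (adjusted p 0.0516 to 0.137). That of AT4G20970 was lost without any one of replicate 1 of ahk3 ahk4 medial at 8 h or replicate 1 of WT medial at 16 h (adjusted p 0.0612 to 0.123). With only the groups compared, the calls of AT4G34950, AT1G62975 and AT4G20970 were lost as well (adjusted p = 0.0676, 0.18 and 0.0943).

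For the basal segments, where the wild-type libraries were used by the rule, the genotypes are set side by side as values. The ratio of ahk3 ahk4 to WT at 8 h had a median of 0.892, from 0.403 for IAA5 to 2.23 for AT4G18422, and 18 of 25 members were below 1. At 16 h its median was 1.35, from 0.591 for AT4G11210 to 7.55 for AT4G18422, and 20 of 25 were above 1. The rule bounds the 16 h wild-type level from above and the 8 h level from below, and it does not bound the mutant levels. The choice by itself therefore tends to lower the 8 h ratio and to raise the 16 h ratio. Neither direction was tested, and shares over all loci are not given for these counts. As a share of the 8 h mean, the level left at 16 h had a median of 17.5% in WT basal, 29.4% in ahk3 ahk4 basal, 27.6% in WT medial and 29.5% in ahk3 ahk4 medial. The share ran up to 24.4%, 71.2%, 274% and 152% in the same order, where the 274% is that of AT1G10585 with an 8 h mean below 1 CPM.

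**Figure D4:**
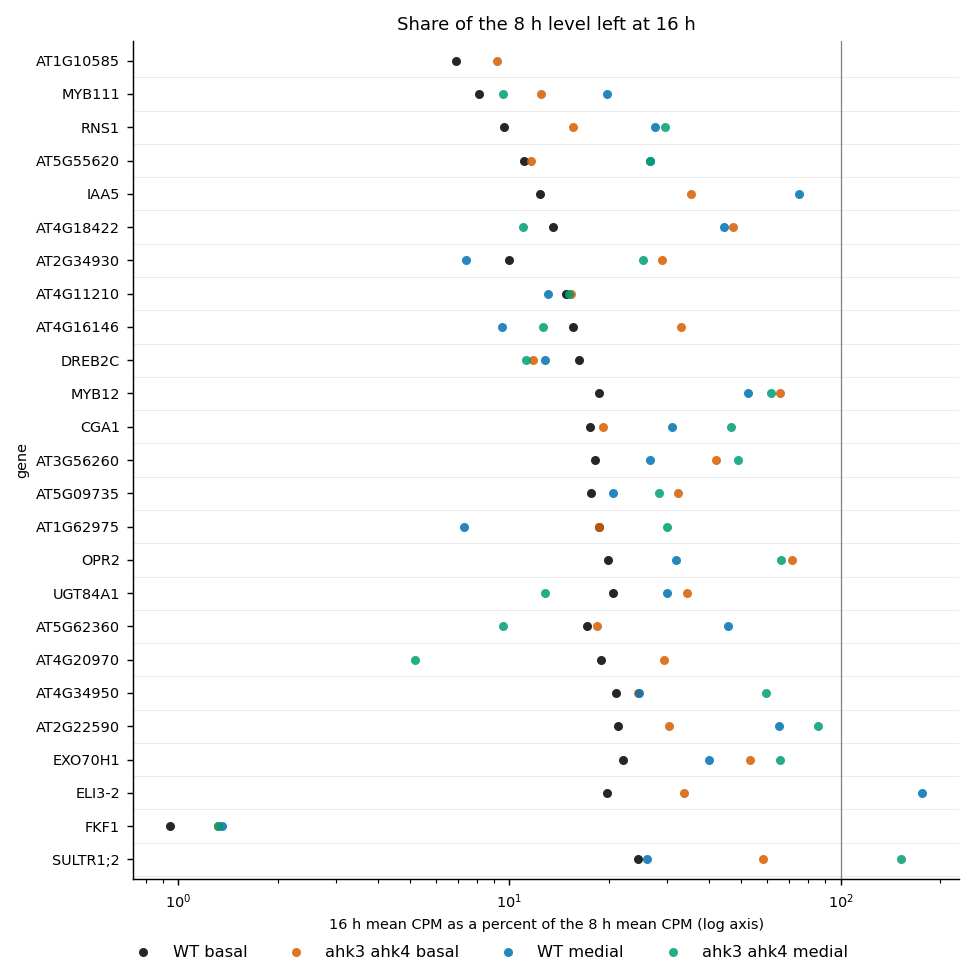
Mean level at 16 h as a percentage of the mean level at 8 h for each member in WT basal, ahk3 ahk4 basal, WT medial and ahk3 ahk4 medial, on a log axis with a line at 100%. Means of 3 libraries are shown, and points with an 8 h mean below 1 CPM are not drawn. FKF1 lies near 1% in all 4 series, and the WT basal points end at 24.4%, where the rule cuts them.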

How the data were processed

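Gene-level read counts, 1 file per library, were used as the authors deposited them; per the submitters' processing notes HTSeq and DESeq2 were used, with no version given, and the aligner, genome build, annotation and strand setting were not given in the sources used here. Lines naming no gene, 4.594% to 62.196% of a library's reads, were left out of totals and tests. CPM scales counts to a common total over AT loci. Counts of 36 libraries were fitted together with edgeR 4.0.16 (R 4.3.3) by quasi-likelihood with TMM scaling, filterByExpr over 12 groups (19819 genes kept) and Benjamini-Hochberg adjustment over all of them; 19 contrasts were tested, called at adjusted p below 0.05, none with WT basal libraries. The steps were tested on simulated counts. Alternatives were RLE factors, totals only, no filter, DESeq2 1.42.0, only the groups compared, a replicate block, the share of reads aligned at more than 1 place as a covariate, and leaving out each library. Folds against 1 to 3 counts carry exact 95% binomial intervals, and bounds use 3 counts, both for counting error only. The rule for naming genes took the members highest in WT basal, with the largest smaller fold, in a list, called in all series, of extreme genotype ratio, or called in a genotype or interaction contrast. The members and the 6 lists described were chosen with earlier results of these data known. The 6 are from 27 lists, and they are those that hold a member, with the clock list and the phenylpropanoid list. Lists not described changed to 8 h as well, some mostly up and some mostly down. Promoter windows came from RefSeq TAIR10.1 by locus.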

Additional observations from a re-analysis of the deposited data

Results flagged for a closer look

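Interaction terms tested whether a change over time differed between groups, and 18 values passed (edgeR quasi-likelihood test, adjusted p below 0.05). All are on the log2 scale and are given with no explanation. Calls were lost in 15 alternatives for AT2G22590 and in 13 for AT1G62975. They were lost in 12 for RNS1 (genotype term) and in 9 for AT4G34950 (region term, 8 to 16 h). Further losses and the shares over all genes stand in the report. The genotype and region terms share the ahk3 ahk4 medial libraries, so they are not independent of each other.

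The rise from 0 to 8 h was smaller in ahk3 ahk4 medial than in WT medial by -5.36 for AT3G56260, -2.23 for RNS1, -2.12 for AT5G62360, -1.73 for AT4G16146 and -1.50 for AT4G34950. For RNS1, AT5G62360 and AT3G56260 the ahk3 ahk4 medial libraries were already high at 0 h, as given in the report.

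In ahk3 ahk4, the rise was larger in basal than in medial segments by 1.89 for AT5G62360, 3.12 for RNS1, 3.70 for AT5G55620, 5.48 for AT2G22590, 6.76 for IAA5, 8.71 for AT1G10585 and 9.82 for ELI3-2. ELI3-2 had 0 counts in ahk3 ahk4 basal at 0 h, and AT1G10585 and IAA5 had 2, so these fitted sizes depend on the prior count and are no bounds.

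From 8 to 16 h the change in ahk3 ahk4 medial differed from that in WT medial by -4.72 for AT4G20970, -2.41 for AT5G62360, 1.16 for AT4G34950 and 1.78 for AT1G62975. Over the same hours the basal change in ahk3 ahk4 differed from the medial one by -1.28 for AT4G34950 and 1.41 for AT4G16146.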

How the results depend on the processing

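Members numbered 51 at 3-fold and 9 at 6-fold in place of 4-fold, and 23 to 29 when 1 WT basal library was left out. With library totals in place of TMM the all-gene median moved by -0.143 to 0.12, and log2 changes are read relative to it.

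The counts of members at 16 h against 0 h in ahk3 ahk4 basal that were lower became 2 with RLE factors, 2 with DESeq2, 0 with only the groups compared, and 1 to 2 without 1 library. In medial segments at 8 h, ahk3 ahk4 against WT, 1 member was higher with library totals, 1 with the alignment covariate and 0 with only the groups compared, where 0 were lower; without 1 library 0 to 3 were higher and 0 to 1 lower. At 16 h 0 were lower with library totals, 0 with the covariate, 2 with DESeq2 and 3 with only the groups compared, and 0 to 1 without 1 library. For the medial genotype difference in the rise, 1 was larger with DESeq2 and 3 were smaller with only the groups compared, and without 1 library 0 to 1 and 3 to 6. From 8 to 16 h that difference was upward for 1 with no filter, 1 with the replicate block, 1 with the covariate and 0 with only the groups compared, where 1 was downward; without 1 library 0 to 1 and 1 to 3. The regional difference in the rise in ahk3 ahk4 was called for 11 with DESeq2 and 4 to 7 without 1 library. From 8 to 16 h it was downward for 0 with the covariate, 0 with only the groups compared and 0 to 1 without 1 library, and upward for 1 to 2. Between ahk3 ahk4 basal and medial, 7 to 9 were higher and 2 to 4 lower at 8 h, and 3 to 5 lower at 16 h, without 1 library. The cause was not tested.

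Whether replicate numbers pair the samples was not settled: in 0 of 15 comparisons did all same-numbered deviations correlate above 0.1 (r -0.36 to 0.34 over 12945 genes). Between the hours of WT medial r ran from 0.03 to 0.33. The replicate block moved 1 count by over 1.5 times, the one given above.

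Of 2981 alternatives for 222 single values, 2718 kept direction and side of the threshold, 234 lost the call, 11 gained one and 18 changed sign, all of values that were not called. Besides losses without 1 library, 22 calls were lost with only the groups compared, 15 with the covariate and 10 with no filter. Library totals lost 8, the replicate block 4, and RLE factors and DESeq2 2 each. Leaving out replicate 1 of ahk3 ahk4 medial at 8 h lost 17, the most of any single library. The gene paragraphs name only part of these. With the covariate, AT2G34930 (8 h against 0 h, ahk3 ahk4 medial) read 0.00 and ELI3-2 0.36. Without 1 library, the log2 change from 0 to 8 h ran from -0.05 to 0.40 for AT4G11210 in WT medial, and in ahk3 ahk4 medial from -0.58 to 5.19 for AT1G10585, -0.26 to 0.26 for AT2G34930 and -0.83 to 1.90 for ELI3-2. From 8 to 16 h it ran in WT medial from -0.12 to 2.30 for AT1G10585, -1.36 to 0.29 for IAA5 and -0.67 to 2.52 for AT4G20970, and in ahk3 ahk4 medial from -2.02 to 0.93 for AT1G10585, -3.70 to 0.20 for IAA5 and -0.91 to 0.08 for ELI3-2. For AT1G10585, IAA5, AT4G20970 and ELI3-2 the groups compared here held 9 to 77 counts in all; the part of depth was not tested.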
